A study of Mus musculus with 18 samples.

Results

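The 8 genes described here are Tcf3, Gtf2ird1, Rpusd1, Tcof1, Atat1, Luzp1, Atp2a2 and Nrbf2, whose splicing at Day 0 differed strongly between PCBP1 knockdown and control cells. These 8 of the 46167 genes with a quantified transcript form a named list, drawn from the genes with the largest junction changes in the deposited Day 0 splicing table for PCBP1. Among the 10016 genes of that table, ranked by their largest absolute E(dPSI), Rpusd1 held rank 2, Gtf2ird1 rank 3, Tcf3 rank 5, Atat1 rank 6, Atp2a2 rank 7, Luzp1 rank 8, Tcof1 rank 11 and Nrbf2 rank 26. Nrbf2, the lowest of the list, had a largest absolute E(dPSI) of 0.373, against 0.377 for the gene just above it and 0.372 for the gene just below it, neither of them on the list. The genes were thus chosen by their E(dPSI) in Day 0 PCBP1 knockdown against control, and every value of that contrast is given as a description with no test.

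The study measured RNA in hematopoietic progenitors enriched from the fetal liver of E14.5 CD-1 mouse embryos, using an antibody kit that also carried an anti-CD71 antibody. The cells were infected with MSCV-PIG retroviruses, whose puromycin-IRES-GFP cassette accompanies an shRNA, and were grown in expansion medium with dexamethasone, erythropoietin and SCF. Cells taken after that growth are the Day 0 cells, and cells moved to an erythropoietin medium for a further 2 days are the Day 2 cells. Each day has 3 libraries with an shRNA against Pcbp1 (labelled SH1, SH3 and SH4), 3 with an shRNA against Pcbp2 (SH1, SH3 and SH4) and 3 controls with a scrambled (SCR-1, SCR-2) or Luciferase (LUC-1) shRNA, 18 libraries in all. Every group, the controls included, carries the retrovirus and a hairpin. The labels do not say whether the libraries of a group came from separate embryos or cultures, so p-values measure only the spread between these libraries.

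The poly(C)-binding proteins PCBP1 and PCBP2 hold KH domains that bind runs of cytosine in single-stranded RNA and act in splicing, RNA stability and translation. A C-rich tract before or inside an alternative exon is a known place for them to act on the choice of that exon. The 8 genes are not 1 pathway. Tcf3 and Gtf2ird1 encode transcription factors, Rpusd1 and Tcof1 serve RNA modification and ribosomal RNA synthesis, Atat1 and Luzp1 act on the cytoskeleton, Atp2a2 encodes a calcium pump and Nrbf2 an autophagy factor.

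The deposited libraries held between 27033440 and 54096339 estimated reads. Pcbp1 itself was at 14.2, 59.4 and 24.3 CPM (counts scaled to a common library size with TMM) in the Day 0 PCBP1 knockdown libraries SH1, SH3 and SH4, against 186, 197 and 206 CPM in the controls, and it was also below every control at Day 2 (log2 fold change -2.83, edgeR adjusted p = 0.00239). For Pcbp2 the log2 fold change in its own knockdown was -2.49 at Day 2 and -2.01 at Day 0 (edgeR adjusted p = 5.71e-14 and 3.05e-12). All 8 erythroid markers were detected. Their summed level, scaled by library totals and not with TMM, was 221000 to 304000 CPM at Day 2 and 4930 to 6690 CPM at Day 0. At Day 2 the LUC-1 control library stood apart, with a score of -74.9 on a first component that held 23.1% of the variance, whereas the other 8 Day 2 libraries lay between -11.4 and 38.3.

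The sequences below are those on which the splicing changes turn, shown to let the C runs of these exons be read directly. They were read from the GENCODE M21 transcripts (mouse build GRCm38), 5′ to 3′ on the coding strand, in lower case with runs of 3 or more C in capitals. The alternative exon of Gtf2ird1 lies at chr5:134382530-134382586 on the minus strand and is wholly coding.
Gtf2ird1 57-nt exon: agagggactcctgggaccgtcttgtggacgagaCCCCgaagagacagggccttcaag
The 2 alternative exons of Tcf3, both coding for a basic helix-loop-helix domain, lie on the minus strand at chr10:80412827-80413062 (236 nt, the E12 exon) and chr10:80410398-80410624 (227 nt, the E47 exon).
Tcf3 236-nt exon: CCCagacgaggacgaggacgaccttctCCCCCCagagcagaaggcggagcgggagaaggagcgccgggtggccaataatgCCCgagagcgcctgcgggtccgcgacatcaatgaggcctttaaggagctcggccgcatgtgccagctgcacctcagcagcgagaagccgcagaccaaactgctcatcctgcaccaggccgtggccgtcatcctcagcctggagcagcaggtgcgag
Tcf3 227-nt exon: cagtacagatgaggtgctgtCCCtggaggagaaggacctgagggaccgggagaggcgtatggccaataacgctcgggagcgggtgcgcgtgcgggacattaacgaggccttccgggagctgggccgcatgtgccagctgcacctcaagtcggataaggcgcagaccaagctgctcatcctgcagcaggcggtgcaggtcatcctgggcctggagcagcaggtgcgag
The Rpusd1 exon lies at chr17:25728203-25728391 on the plus strand. Only its coding bases (chr17:25728210-25728391) are shown, which start with the annotated start codon of Rpusd1-201, and the bases of the exon before that codon are left out. The 22 bases before the exon (chr17:25728181-25728202) belong to the exon in Rpusd1-204.
Rpusd1 22 nt before the exon: gctcactCCCacctgcgtgcag
Rpusd1 coding bases of the 189-nt exon: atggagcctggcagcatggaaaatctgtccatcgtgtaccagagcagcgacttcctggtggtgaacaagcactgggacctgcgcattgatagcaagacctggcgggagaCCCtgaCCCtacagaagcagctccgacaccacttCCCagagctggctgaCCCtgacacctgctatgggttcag
The Atat1 exon lies at chr17:35902356-35902438 and the Nrbf2 exon at chr10:67271400-67271446, both on the minus strand.
Atat1 83-nt exon: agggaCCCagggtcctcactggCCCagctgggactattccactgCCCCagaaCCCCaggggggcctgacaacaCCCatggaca
Nrbf2 47-nt exon: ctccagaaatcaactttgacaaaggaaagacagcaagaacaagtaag
In Atp2a2 the choice is between donor sites, and the 24 bases around the upstream donor (chr5:122457291-122457314, minus strand, with its GT in capitals and no other base) and the last 24 bases before the downstream donor (chr5:122455893-122455916) are shown.
Atp2a2 upstream donor: tggaacaacccgGTaaagagtgtg
Atp2a2 downstream donor: gccttccaacatccatcaactaac

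The 4-base run CCCC and its reverse complement GGGG were searched, overlaps allowed. CCCC occurred in the exons of Gtf2ird1 and Atat1 and in the E12 exon of Tcf3, and it did not occur in the Rpusd1 bases shown, the E47 exon or the Nrbf2 exon. Among annotated internal exons within 10% of the same length, CCCC was held by 13.8% for Gtf2ird1, 19.3% for Atat1, 51.7% for E12, 40.0% for Rpusd1, 50.0% for E47 and 11.4% for Nrbf2. The Atat1 exon was the richest in C, at 37.3% against a median of 23.3%, and the only one shown that held GGGG. The Nrbf2 exon was the poorest, at 19.1% against a median of 22.2%. These matches are descriptions of letters and not binding sites.

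Splicing was read from the authors' tables of local splicing variations (LSVs), sets of junctions that share 1 exon end. E(PSI) is the estimated percentage of that end's use taken by 1 junction, 1 value for the pooled libraries of a group, so it has no replicate spread, and read counts per junction were not analysed here. E(dPSI) is the authors' shrunken estimate of knockdown minus control, with a probability that the change is at least 0.20. At Day 0, 17 of the 497 junctions and retained introns of the 8 genes reached a probability of 0.95 in PCBP1 knockdown against control, where 0.0178% of all 573132 did. That contrast chose the genes, so nothing is read from this count.

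The event of each gene below is the one with its largest Day 0 change. The alternative exon was used less in PCBP1 knockdown than in control cells in 5 of the 8 genes (Tcf3, Gtf2ird1, Rpusd1, Tcof1 and Atat1), and the alternative exon or exon extension was used more in 3 (Luzp1, Atp2a2 and Nrbf2). All 8 are described in turn, with the PCBP2 knockdown, whose values are set against the same control libraries and are therefore not independent of those for PCBP1.

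Tcf3 (ENSMUSG00000020167) encodes the E proteins E12 and E47, partners of TAL1 in blood cells, which differ by which of 2 neighbouring exons supplies the DNA-binding domain. The junction from the last exon to the E47 exon took 29.7% in PCBP1 knockdown, 59.8% in PCBP2 knockdown and 59.7% in control cells. The junction to the E12 exon took 8.2% in PCBP1 knockdown, 23.6% in PCBP2 knockdown and 22.5% in control cells. The change of the E47 junction had a probability of 0.962 (E(dPSI) -0.306) and that of the E12 junction 0.0171 (E(dPSI) -0.107). A junction that passes over both, from position 80410274 to position 80413205 and in 0 annotated transcripts, took 57.1% in PCBP1 knockdown, against 12% in PCBP2 knockdown and 12.1% in control cells (E(dPSI) for PCBP1 0.456, probability 1.0). Counted from the exon upstream of both, the same junction took 25.4% in PCBP1 knockdown, 3.4% in PCBP2 knockdown and 4.7% in control cells. For PCBP1 its probability there was 0.647, under the threshold. From that exon the E47 junction took 61.6% in PCBP1 knockdown, 73.0% in PCBP2 knockdown and 75.1% in control cells. The E12 junction took 10.3%, 21.1% and 17.5% in the same order. For PCBP1 their probabilities were 0.131 and 2.46e-10, so the lower E47 use did not pass in this view.

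Gtf2ird1 (ENSMUSG00000023079), a TFII-I family transcription factor that lies in the region deleted in human Williams-Beuren syndrome, has a 57-nt exon. The junction into it took 26.6% in PCBP1 knockdown, 82.6% in PCBP2 knockdown and 72.7% in control cells. The junction that skips it took 50.5% in PCBP1 knockdown, 1.3% in PCBP2 knockdown and 15% in control cells. The PCBP1 and PCBP2 knockdown values lay on opposite sides of the control value for both junctions. The probability of a change of at least 0.20 was 1.0 and 0.996 for PCBP1 and 0.00486 and 0.00514 for PCBP2. Seen from the exon that follows, skipping took 30.7% in PCBP1 knockdown, 0.5% in PCBP2 knockdown and 7.4% in control cells. For PCBP1 the probability there was 0.811, under the threshold.

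Rpusd1 (ENSMUSG00000041199) encodes a predicted pseudouridine synthase of RNA. The exon that holds its start codon was joined at 18.9% in PCBP1 knockdown, 55.7% in PCBP2 knockdown and 65.7% in control cells. The junction that skips it took 63.9% in PCBP1 knockdown, 10.1% in PCBP2 knockdown and 23.8% in control cells. Seen from the exon that follows, skipping took 58.3% in PCBP1 knockdown, 8.2% in PCBP2 knockdown and 21.3% in control cells. In the PCBP2 knockdown another junction, to the acceptor 22 bases upstream that Rpusd1-204 uses, took 22.8% against 6.4% in control cells, with a probability of 0.163.

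Tcof1 (ENSMUSG00000024613) encodes treacle, a nucleolar protein needed for ribosomal RNA transcription. The junction into its 144-nt exon, a multiple of 3 and wholly coding, took 38.4% in PCBP1 knockdown, 82.7% in PCBP2 knockdown and 81.0% in control cells. Skipping took 61.6% in PCBP1 knockdown, 17.3% in PCBP2 knockdown and 19% in control cells. The other side of the exon gave the same picture, with skipping at 48.6% in PCBP1 knockdown, 15% in PCBP2 knockdown and 17.6% in control cells.

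Atat1 (ENSMUSG00000024426) encodes the alpha-tubulin acetyltransferase. Its 83-nt exon, within which the coding sequence of Atat1-204 ends, was joined at 16% in PCBP1 knockdown and 60.3% in control cells. The 2 junctions that skip it took 46.2% and 37.6% in PCBP1 knockdown, against 21.6% and 17.9% in control cells. The shrunken E(dPSI) of these skips was 0.0502 and 0.00595, with probabilities of 0.163 and 0.0384, so only the loss of the exon junction passed the threshold (0.976). This LSV was not analysed here for the PCBP2 knockdown.

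Luzp1 (ENSMUSG00000001089) encodes a leucine zipper protein of actin filaments and the base of the cilium. A 92-nt exon that is annotated as not coding, in Luzp1-207, was joined at 61.4% in PCBP1 knockdown, 32.4% in PCBP2 knockdown and 24.4% in control cells. The junction that skips it took 31.2% in PCBP1 knockdown, 64.6% in PCBP2 knockdown and 74.6% in control cells. For PCBP1 the inclusion junction had a probability of 0.946, just under the threshold, and the skipping junction 0.981.

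Atp2a2 (ENSMUSG00000029467) encodes SERCA2, the pump that returns calcium to the endoplasmic reticulum. Its last exon was reached from the upstream donor, as in the coding transcript Atp2a2-202, at 42.7% in PCBP1 knockdown, 71.5% in PCBP2 knockdown and 83.8% in control cells. It was reached from the downstream donor, as in Atp2a2-203, which is annotated as a target of nonsense-mediated decay, at 55.3% in PCBP1 knockdown, 23.1% in PCBP2 knockdown and 12% in control cells. Counted from the last exon, the downstream donor was thus the more used in PCBP1 knockdown, and the upstream donor in the other groups. From the exon with the upstream donor, that donor's junction took 74.3% in PCBP1 knockdown, 84.2% in PCBP2 knockdown and 92.4% in control cells. For PCBP1 its E(dPSI) was -0.0459 with a probability of 0.00928, so this view did not pass the threshold. The SERCA2b form Atp2a2-201, which uses neither donor, held most of the gene's transcripts per length at Day 0, with 75.8% to 80.7% in PCBP1 knockdown, 78.7% to 81.6% in PCBP2 knockdown and 77.7% to 79.7% in control libraries.

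Nrbf2 (ENSMUSG00000075000) encodes a subunit of the class III PI3-kinase complex of autophagy. A 47-nt coding exon present in 1 of its 2 annotated transcripts was joined at 54.9% in PCBP1 knockdown, 45.3% in PCBP2 knockdown and 18.5% in control cells, and the canonical junction past it took 45.1% in PCBP1 knockdown, 54.7% in PCBP2 knockdown and 81.5% in control cells. Seen from the exon that follows, the canonical junction took 74.4% in PCBP1 knockdown, 83.6% in PCBP2 knockdown and 92.5% in control cells. For PCBP1 its E(dPSI) was -0.0486 with a probability of 0.014, so this view did not pass the threshold. A junction to position 67283935, in 0 annotated transcripts, took 46.7% in PCBP1 knockdown, 53.8% in PCBP2 knockdown and 21.2% in control cells. Nrbf2 was the 1 gene of the list with junctions at a probability of at least 0.50 in the Day 0 PCBP2 table (3 junctions, the highest at 0.924, where 0.0384% of all reached 0.50). None of the 509 junctions and retained introns of the 8 genes reached 0.95 there, where 0.00362% of all did.

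**Figure D1:**
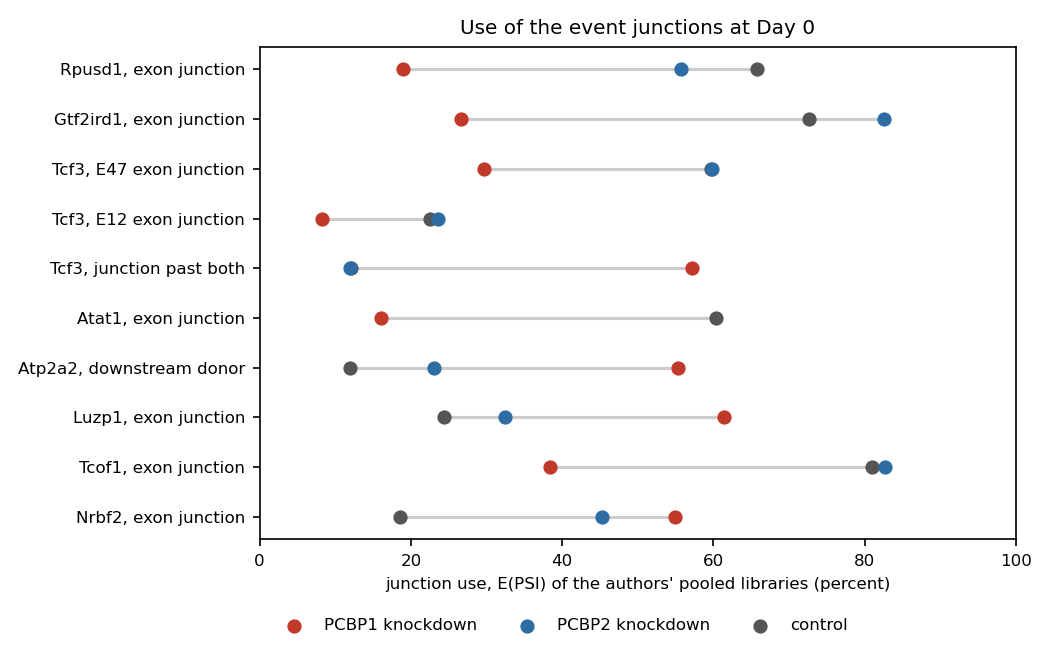
Junction use at Day 0 (x axis, E(PSI) of the authors' pooled libraries, in percent) for 10 event junctions of the 8 genes (y axis), with PCBP1 knockdown in red, PCBP2 knockdown in blue and control in grey, joined by a line. The genes were chosen by the contrast of red and grey, so the wide gaps between them are a description. For example, the Tcf3 junction past both exons stands at 57.1% against 12.1%. The gap is smallest for the Tcf3 E12 junction (8.2% against 22.5%, probability 0.0171). Each blue point lies nearer to its grey one than the red point does, with the widest gap in Nrbf2 (45.3% against 18.5%). For the Tcf3 E47 and skipping junctions the blue points hide the grey ones. Atat1 has no PCBP2 point.

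At Day 2 the tables held LSVs of Tcf3, Atp2a2 and, for PCBP1, Tcof1, and the junctions of the other 5 genes were not analysed here. None of the 276 junctions and retained introns of these genes reached a probability of 0.95 in the Day 2 PCBP1 table (background 0.0526%), and 2 of 271 did in the Day 2 PCBP2 table (background 0.0164%). Both belong to Tcf3 and lie at its 5′ end. The junction to an alternative first exon, used by Tcf3-213, took 50.2% in PCBP1 knockdown, 60.2% in PCBP2 knockdown and 30.6% in control cells (probabilities 0.428 and 0.951). The junction to the usual upstream exon took 48.9% in PCBP1 knockdown, 36.9% in PCBP2 knockdown and 67.0% in control cells (probabilities 0.161 and 0.956). At Day 0 the same pair of junctions lay close together across groups, the alternative first exon at 22.5% in PCBP1 knockdown, 21.4% in PCBP2 knockdown and 19.5% in control cells.

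The bHLH exons of Tcf3 could be followed at Day 2 from the exon upstream of both. The E12 junction took 13.8% in PCBP1 knockdown, 39.5% in PCBP2 knockdown and 37.5% in control cells. The E47 junction took 60.3% in PCBP1 knockdown, 55.6% in PCBP2 knockdown and 47.8% in control cells. The junction past both exons took 21.2% in PCBP1 knockdown, 0.1% in PCBP2 knockdown and 7.4% in control cells. In the PCBP1 table the E12 change had a probability of 0.501 and the skipping change 0.0546, so neither passed the threshold at Day 2. Farther upstream, 2 acceptors 3 bases apart differed in order in the PCBP2 table, the one at position 80415523 taking 61.8% in PCBP2 knockdown and 35.2% in control cells (probability 0.849), and 37.8% in PCBP1 knockdown. The Atp2a2 item with the largest Day 2 difference had an E(PSI) of 0.967 in PCBP1 knockdown and 0.899 in control cells, and for PCBP2 one of 0.893 in knockdown and 0.967 in control cells. For Tcof1 it was 0.015 in PCBP1 knockdown and 0.109 in control cells. The LSVs that held their Day 0 events were not analysed here at Day 2.

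**Figure D2:**
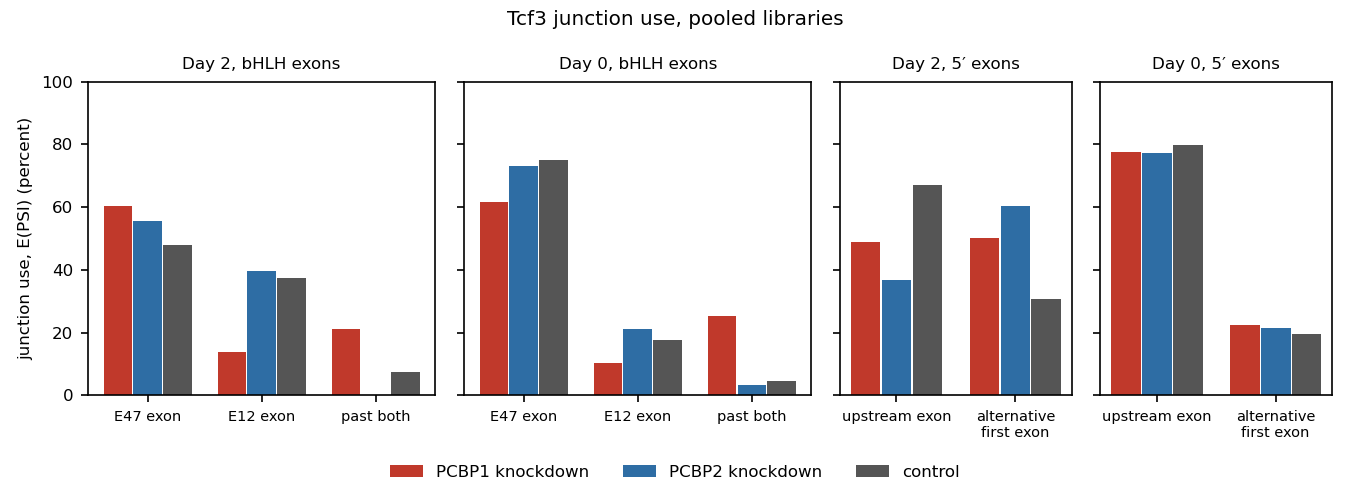
Junction use of Tcf3 (y axis, E(PSI) of the authors' pooled libraries, in percent, 1 bar per group with no replicate error) at Day 2 and Day 0, for the exon upstream of the bHLH exons (left panels) and for the 5′ exons (right panels). The junction past both bHLH exons stands at 21.2% (Day 2) and 25.4% (Day 0) in PCBP1 knockdown, above 7.4% and 4.7% in control. The probabilities of these changes were 0.0546 and 0.647, both under the threshold. The alternative first exon differs between groups at Day 2 and lies between 19.5% and 22.5% at Day 0.

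The same choices were looked at in each library through the authors' Salmon estimates, as the share of annotated transcripts that hold the alternative stretch, per effective length. This readout has replicates but sees only annotated transcripts, and it is a model estimate and not a count of junction reads. With 3 libraries against 3 an exact 2-sided permutation test cannot give a p below 0.1, so none was run on these shares. Their Day 0 PCBP1 values belong to the contrast that chose the genes, how often the shares of other genes separate was not computed, and nothing is read from a lack of overlap. Rpusd1 had 1 quantified transcript of 4 annotated, Rpusd1-201, which holds the exon, and thus no share. All Rpusd1 levels in CPM and TPM rest on that transcript.

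In Gtf2ird1, transcripts with the 57-nt exon held 61.7%, 77.6% and 54.8% in the Day 0 PCBP1 knockdown libraries SH1, SH3 and SH4, 99.8%, 94.4% and 95.7% in the PCBP2 knockdown libraries, and 91.8%, 84.6% and 88.6% in the controls. All PCBP1 libraries lay below and all PCBP2 libraries above every control. At Day 2 the gene's estimates rested on few reads (0.733 to 21.9 estimated reads with the exon), and the shares ranged from 19% to 100% within the controls alone.

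Tcf3 transcripts with the E47 exon, among those with either bHLH exon, held 90.3%, 87.1% and 94.0% in Day 0 PCBP1 knockdown, 86.6%, 86.2% and 70.7% in PCBP2 knockdown and 82.0%, 82.3% and 78.8% in control libraries. The PCBP1 libraries lay above all controls and the PCBP2 libraries on both sides of them. The share counts only transcripts with the exact E47 or E12 exon. Tcf3-212, which uses the E12 acceptor but does not hold the exact exon, was left out. It held 21.3%, 14.5% and 16.7% of Tcf3 transcripts per length in Day 0 PCBP1 knockdown and 12%, 8.96% and 9.44% in control libraries. The share with Tcf3-212 counted as E12 was not computed, so nothing is read from this separation. The junction past both exons is in no annotated transcript and does not enter this share. At Day 2 the shares were 100%, 80.9% and 91.1% in PCBP1 knockdown, 87.7%, 90.2% and 89.1% in PCBP2 knockdown and 89.0%, 74.4% and 75.5% in control libraries, and the groups overlapped.

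Tcof1 transcripts with the 144-nt exon held 69.2%, 77.5% and 73.4% in Day 0 PCBP1 knockdown, 85.8%, 83.1% and 87.5% in PCBP2 knockdown and 84.7%, 82.6% and 86.2% in control libraries. The PCBP1 libraries were the 3 lowest. Luzp1 transcripts with the 92-nt exon held 69.2%, 55.8% and 54.5% in PCBP1 knockdown and 41.7%, 40.7% and 36.9% in control libraries, again with no overlap. The PCBP2 libraries spread from 28.6% to 70.3%. Luzp1-201, which has neither the exon nor an intron across it, is not in this share. It held 56.4%, 67.5% and 41.3% of the gene's transcripts per length in PCBP1 knockdown and 44.2%, 46.7% and 51.3% in control libraries. Of all Luzp1 transcripts per length, Luzp1-207 held 25.7%, 13.5% and 29.3% in PCBP1 knockdown and 17.1%, 21% and 12.8% in control libraries. These groups overlapped.

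Atp2a2-203, the transcript with the downstream donor, held 62.3%, 54.7% and 60.9% of the 2 transcripts that use either donor in Day 0 PCBP1 knockdown, 48.8%, 52.9% and 56.9% in PCBP2 knockdown and 51.6%, 51.3% and 49.2% in control libraries. All PCBP1 libraries lay above the controls, by less than in the junction values, and the control share near 50% is far from the 12% of the junction readout. At Day 2 it held 58.6%, 49.5% and 52.4% in PCBP1 knockdown, 36.4%, 46.8% and 40.4% in PCBP2 knockdown and 41.2%, 44.4% and 49.1% in control libraries, so that each PCBP1 library was again above every control.

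Nrbf2 transcripts with the 47-nt exon held 14.3%, 16.9% and 9.93% in Day 0 PCBP1 knockdown and 7.97%, 10.7% and 5.87% in control libraries, which overlapped, and 11.1%, 12.1% and 11.2% in PCBP2 knockdown, all above the controls. Atat1 transcripts with the 83-nt exon held 41.5%, 15.2% and 6.72% in PCBP1 knockdown and 46.7%, 29.7% and 34.9% in control libraries, which also overlapped, on 1.9 to 23.8 estimated reads with the exon. The Atat1 locus is overlapped along its whole length by the antisense gene Gm16279. Strandedness is not given in the sources used here, so reads from the gene and its antisense partner cannot be told apart. The same holds where a gene on the opposite strand overlaps Luzp1 (Kdm1a), Gtf2ird1 (Gm42882, Gm26340 and n-R5s178) or Atp2a2 (Gm43361). Atp2a2 is also overlapped by Gm43359 and Gm43360 on its own strand.

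**Figure D3:**
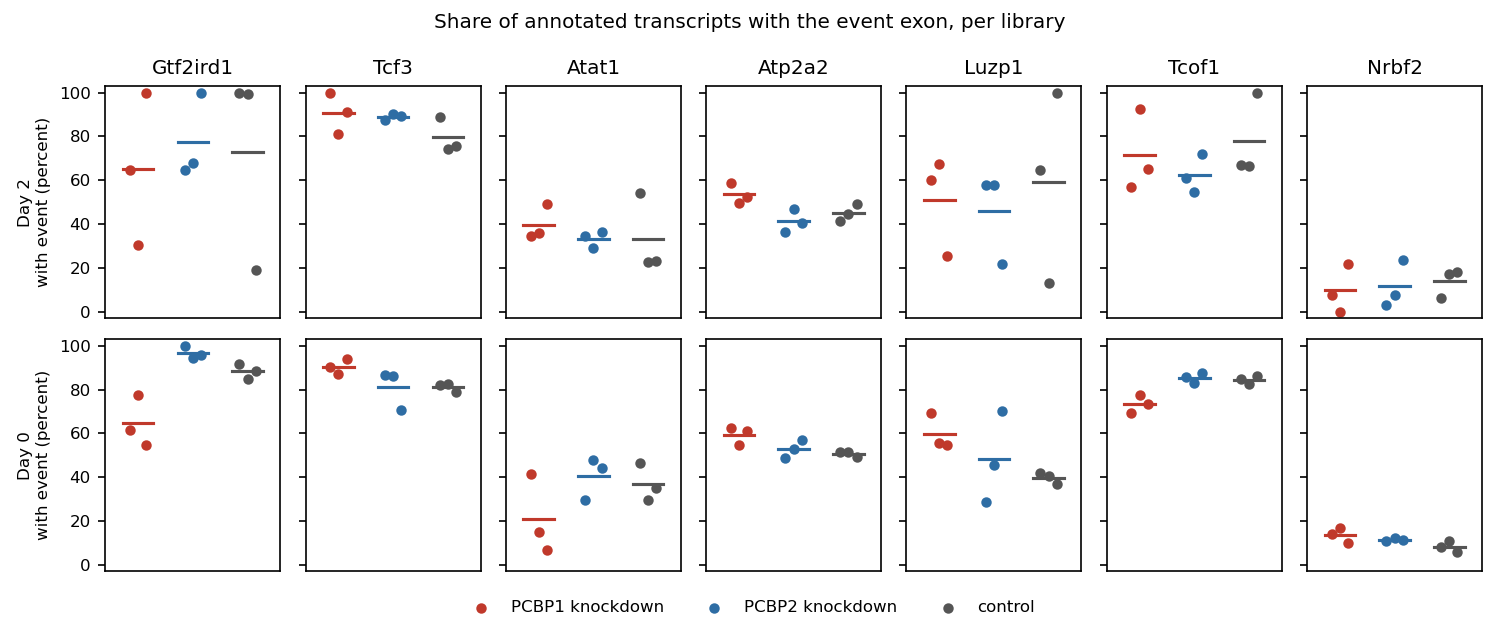
Share of annotated transcripts that hold the alternative stretch (y axis, percent per effective length) in each library at Day 2 (top) and Day 0 (bottom), with PCBP1 knockdown in red, PCBP2 knockdown in blue and control in grey, points for libraries and bars for group means. For Tcf3 the share is that of E47 among transcripts with the exact E47 or E12 exon, without Tcf3-212. For Atp2a2 it is that of the downstream donor among transcripts with either donor. At Day 0 the Gtf2ird1 points lie at 54.8% to 77.6% in PCBP1 knockdown and at 84.6% to 91.8% in control, and at Day 2 the Gtf2ird1 controls alone spread from 19% to 100%.

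The use of single transcripts was tested across all 38216 transcripts with edgeR's diffSpliceDGE, which sets each transcript against the others of its gene. Of the 48 transcripts of these genes that entered the test, 0 were called in Day 2 PCBP1 knockdown (background 1.08%, 2 at an unadjusted p under 0.05), 0 in Day 2 PCBP2 knockdown (0.992%, 3 unadjusted), 0 in Day 2 PCBP2 against PCBP1 knockdown (0.743%, 3 unadjusted) and 0 in Day 0 PCBP2 knockdown (0.23%, 2 unadjusted). With limma's diffSplice the single call among these was Tcf3-208, an E47 transcript, in Day 0 PCBP2 knockdown (relative log2 fold change 4.51, adjusted p = 0.0273), which edgeR gave as 1.6 (adjusted p = 1). Between Day 2 and Day 0 controls edgeR called 4 of the 48 (background 13%). Atp2a2-204 rose by 3 (adjusted p = 0.00021) and Atp2a2-205 by 2.11 (adjusted p = 0.0392). Tcf3-204 fell by 6.22 (adjusted p = 0.0381) and Gtf2ird1-212, which held 2.53%, 0.000755% and 0% of Gtf2ird1 transcripts per length in Day 2 controls and 19%, 15.2% and 19.2% in Day 0 controls, fell by 2.65 (adjusted p = 0.0461). Atp2a2-204 kept its call when any 1 control library was left out, and the other 3 did not.

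Gene expression gave a readout that the splicing rule did not use at Day 2. In bulk RNA fewer cells of a type and less RNA per cell cannot be told apart. Of the 8 genes, 2 fell in PCBP1 knockdown against control at Day 2 (background 7.51% lower and 13% in either direction), 2 fell in PCBP2 knockdown (background 3.72% lower and 4.67% in either direction) and 2 differed between the knockdowns (background 12.3%). Where groups are said below not to overlap at Day 2, the share of all genes that do so is not given here. Nothing is read from that lack of overlap.

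Tcf3 fell in both knockdowns at Day 2. It stood at 39.3, 33.8 and 37.2 CPM in PCBP1 knockdown (SH1, SH3, SH4), 47.2, 42.6 and 52.3 CPM in PCBP2 knockdown and 56.5, 90.8 and 128 CPM in control libraries (SCR-1, SCR-2, LUC-1). Every knockdown library was below every control, and the controls themselves spread widely with LUC-1 highest. The log2 fold change was -1.32 ± 0.20 (SE) for PCBP1 (edgeR adjusted p = 0.00033) and -0.95 ± 0.20 for PCBP2 (adjusted p = 0.0106). Without LUC-1 these were -1.01 (adjusted p = 0.000322) and -0.69 (adjusted p = 0.0133). PCBP2 against PCBP1 knockdown gave 0.37 ± 0.20, which did not pass (adjusted p = 0.261). With the Day 2 libraries alone in the fit the PCBP2 call was lost (adjusted p = 0.0962).

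Atp2a2 differed between the 2 knockdowns at Day 2. It stood at 119, 144 and 131 CPM in PCBP1 knockdown, 178, 171 and 209 CPM in PCBP2 knockdown and 151, 170 and 168 CPM in control libraries. The 3 groups did not overlap. Atp2a2 fell in PCBP1 knockdown by 0.31 on the log2 scale (SE 0.09, edgeR adjusted p = 0.029), the PCBP2 value of 0.19 did not pass (adjusted p = 0.266), and PCBP2 against PCBP1 knockdown gave 0.51 ± 0.09 (adjusted p = 0.00143). The fall in PCBP1 knockdown was called in 5 of the 12 alternatives run for it. Among others, it was not called without SCR-2 (adjusted p = 0.113), LUC-1 (0.0564), SH1 (0.139) or SH4 (0.0595), nor with scaling by library totals (-0.08, adjusted p = 0.606), under which the PCBP2 value was 0.40 (adjusted p = 0.0167). The difference between the knockdowns was called in all 13 alternatives run.

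Tcof1 was at 10.4, 6.52 and 10.8 CPM in PCBP1 knockdown, 5.72, 5.63 and 5.03 CPM in PCBP2 knockdown and 9.44, 11.2 and 6.23 CPM in control libraries at Day 2. The PCBP2 libraries were the 3 lowest, and the PCBP1 libraries overlapped the controls. Tcof1 fell by 0.72 in PCBP2 knockdown against control (SE 0.20, edgeR adjusted p = 0.0413) and by 0.76 in PCBP2 against PCBP1 knockdown (SE 0.20, adjusted p = 0.0174). The call against control was lost when any library other than LUC-1 was left out (adjusted p 0.0893 to 0.173), and with scaling by library totals (-0.53, adjusted p = 0.132), and without LUC-1 it was -0.98 (adjusted p = 0.00627). Of the 12 alternatives run for it, 4 kept this call, and the highest adjusted p of these edgeR and DESeq2 runs was 0.196. The call between knockdowns was lost without PCBP1 SH1 (0.0921), PCBP1 SH4 (0.085) or PCBP2 SH4 (0.0791). It was kept in 8 of the 13 alternatives run.

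The other 5 genes were not called in any knockdown comparison at Day 2. Atat1 was the nearest in PCBP1 knockdown, at 2.84, 2.44 and 3.05 CPM against 4.11, 3.97 and 3.55 CPM in control libraries, with a log2 fold change of -0.48 ± 0.20 (edgeR adjusted p = 0.12). All its PCBP1 libraries were below the controls. Rpusd1 was the nearest in PCBP2 knockdown, at 0.699, 0.842 and 1.20 CPM against 1.32, 1.89 and 1.16 CPM in control libraries, with -0.67 ± 0.29 (adjusted p = 0.209) on 11 to 39 reads per library. Gtf2ird1, Luzp1 and Nrbf2 had log2 fold changes between -0.10 and 0.11 for PCBP1 and between 0.03 and 0.19 for PCBP2.

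At Day 0, 0 of the 8 genes were called in PCBP2 knockdown against control (background 0.0229%) by edgeR or DESeq2, and 0 had an unadjusted p under 0.05. The Day 0 PCBP1 levels belong to the contrast that chose the genes. Tcf3 was at 55.7, 54.3 and 57.4 CPM in PCBP1 knockdown, 71.4, 56.2 and 77.4 CPM in PCBP2 knockdown and 75.0, 83.3 and 71.6 CPM in control libraries (log2 fold change for PCBP1 -0.46). Tcof1 (-0.14) also lay below all controls, Luzp1 (0.19) and Nrbf2 (0.18) above them, and the other 4 genes overlapped the controls. Groups did not overlap for 24.8% of all genes in that contrast.

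Marker sums, in CPM scaled by library totals and not with TMM, were set beside these results. Against TMM, that scaling shifted the median log2 fold change by 0.231 for PCBP1 and 0.197 for PCBP2 against control at Day 2. TMM-scaled sums were not computed, so nothing is read from sums that separate the groups. In Day 2 PCBP1 knockdown the 8 erythroid markers summed to 221000 to 234000 CPM against 247000 to 304000 CPM in controls, the 4 megakaryocyte markers to 361 to 418 CPM against 276 to 335 CPM, and the 4 progenitor markers to 14.6 to 17.9 CPM against 10.7 to 15.7 CPM. In Day 2 PCBP2 knockdown the erythroid sum was 226000 to 251000 CPM and the 3 endothelial markers summed to 18.3 to 21.7 CPM against 13.3 to 16 CPM in controls. There the macrophage (6.49 to 9.17 against 6.07 to 6.39 CPM), lymphoid (3.56 to 6.32 against 2.66 to 3.35 CPM) and stromal sums (0.334 to 0.403 against 0.0867 to 0.117 CPM) also lay above the controls, with 2 of 3 lymphoid and 2 of 3 stromal markers at 0 in both groups. In Day 0 PCBP1 knockdown the 5 macrophage markers summed to 33.4 to 37.3 CPM against 42.0 to 45.1 CPM in controls (36.2 to 37.7 CPM in Day 0 PCBP2 knockdown), and the 4 hepatocyte markers to 5.86 to 13.0 CPM against 15.4 to 18.5 CPM in controls. Their part in the results was not tested.

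**Figure D4:**
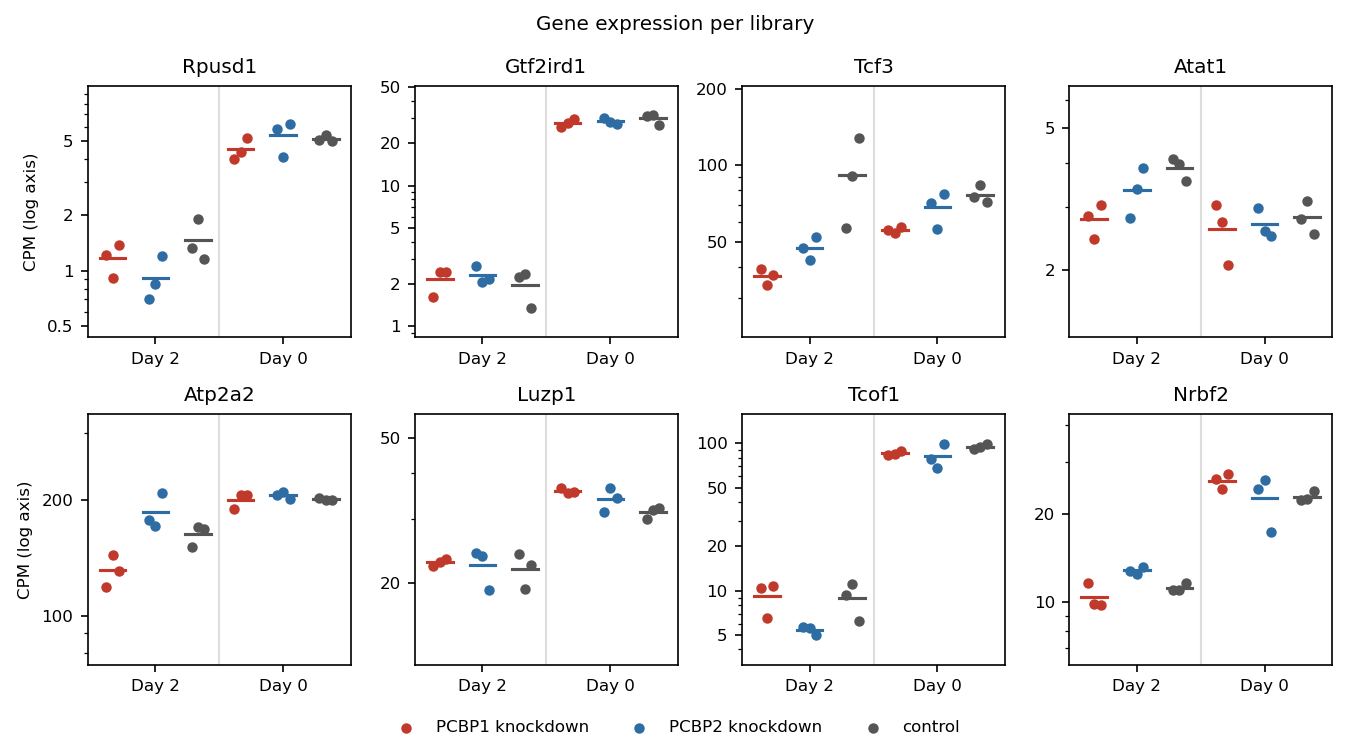
Expression of the 8 genes in each library (y axis, TMM-scaled CPM on a log axis), Day 2 left and Day 0 right in each panel, with PCBP1 knockdown in red, PCBP2 knockdown in blue and control in grey, points for libraries and bars for group means. The red and blue points of Tcf3 at Day 2 (33.8 to 52.3 CPM) lie below all controls (56.5 to 128 CPM). Genes lower at Day 2 than at Day 0 in every library include Gtf2ird1, Tcof1, Rpusd1 and Luzp1.

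**Figure D5:**
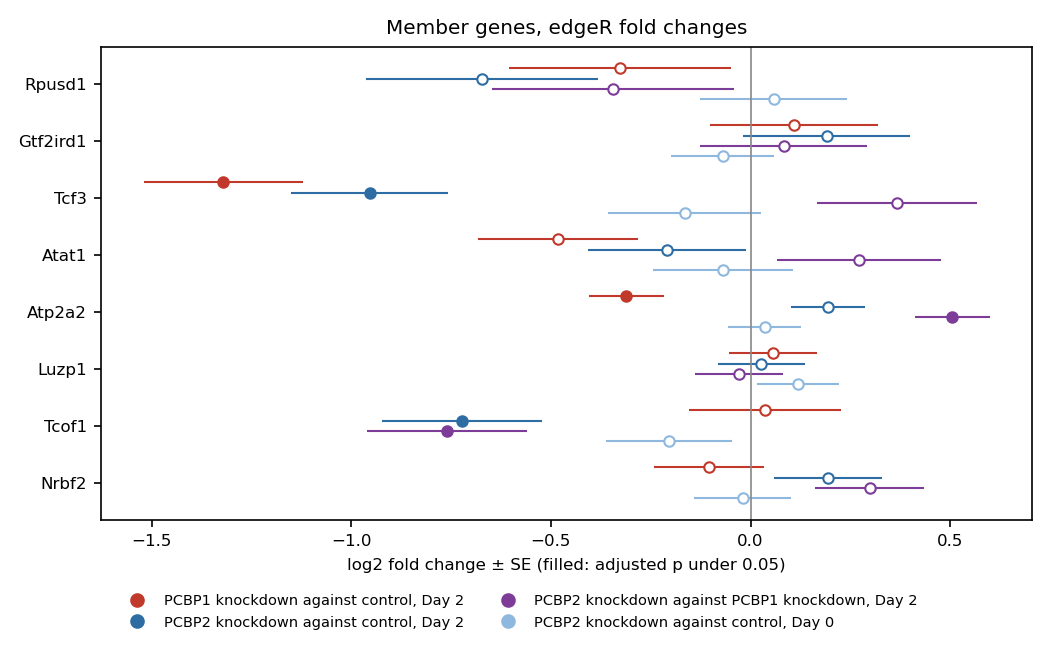
Log2 fold changes of the 8 genes with standard errors (x axis) in 4 comparisons from edgeR, filled where the adjusted p was under 0.05. Tcf3 is filled for both knockdowns at Day 2 (-1.32 and -0.95), Atp2a2 for PCBP1 (-0.31) and for PCBP2 against PCBP1 (0.51), Tcof1 for PCBP2 (-0.72) and for PCBP2 against PCBP1 (-0.76), and no gene for PCBP2 at Day 0.

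Between Day 2 and Day 0 in control cells, 7 of the 8 genes were called by edgeR (background 82.8%), 6 of them lower (background 42.4%) and 1 higher (40.4%). Gtf2ird1 was at 2.23, 2.37 and 1.34 CPM at Day 2 and 31.4, 31.9 and 27.0 CPM at Day 0, and fell by 3.91 on the log2 scale (SE 0.17, adjusted p = 2.39e-16). Tcof1 was at 9.44, 11.2 and 6.23 CPM at Day 2 and 91.1, 94.4 and 98.5 CPM at Day 0, and fell by 3.39 (SE 0.18, adjusted p = 9.85e-14). Rpusd1 was at 1.32, 1.89 and 1.16 CPM at Day 2 and 5.07, 5.43 and 4.99 CPM at Day 0, and fell by 1.81 (SE 0.23, adjusted p = 7.64e-08). In these 3 genes, and also in Nrbf2, Luzp1 and Atp2a2, every Day 2 control library lay below every Day 0 control library. The share of all genes that separate in this way is not given here, and nothing is read from it. Nrbf2 (-1.03), Luzp1 (-0.51) and Atp2a2 (-0.30) fell by less, with adjusted p of 8.79e-08, 0.000116 and 0.0045. The Atp2a2 call was kept in 10 of the 12 alternatives run for it. Atat1 rose, at 4.11, 3.97 and 3.55 CPM at Day 2 and 2.78, 3.13 and 2.53 CPM at Day 0 (log2 fold change 0.46, adjusted p = 0.0252), a call lost without either SCR control of Day 2 (0.139 and 0.116) or without SCR-1 (0.0635) or LUC-1 (0.109) of Day 0. Atat1 was called, in either direction, in 7 of the 12 alternatives run for it. Tcf3 was not called (0.26, adjusted p = 0.218), with 0.44 without SCR-1 of Day 2 (adjusted p = 0.00529) and -0.08 without LUC-1 of Day 2 (adjusted p = 0.632). Scaling by library totals shifted the median of all genes by -1.63, and under it Atat1 (-1.17) and Tcf3 (-1.40) were lower at Day 2. Over the same days, and also scaled by library totals, the 4 progenitor markers summed to 10.7 to 15.7 CPM at Day 2 and 903 to 931 CPM at Day 0. The 4 granulocyte markers summed to 13.3 to 14.7 CPM and 1160 to 1280 CPM. The part of these markers in the falls was not tested.

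Per length, in TPM (mean ± SD, n = 3), Atp2a2 (99.0 ± 2.11) and Tcf3 (87.0 ± 9.47) were the most abundant of the 8 in Day 0 controls. Tcof1 (49.3 ± 1.34) and Gtf2ird1 (43.2 ± 6.87) followed, with overlapping spreads, then Nrbf2 (32.4 ± 0.361) and Luzp1 (10.4 ± 0.664). Atat1 (7.73 ± 1.76) and Rpusd1 (7.35 ± 0.4) were lowest, with overlapping spreads. In Day 2 controls Tcf3 (31.2 ± 6.52) and Atp2a2 (21.5 ± 0.551) led, Nrbf2 (3.97 ± 0.153) and Atat1 (2.67 ± 0.627) came next, then Luzp1 (1.83 ± 0.542), Tcof1 (1.19 ± 0.459), Gtf2ird1 (0.796 ± 0.192) and Rpusd1 (0.499 ± 0.145), and from Atat1 downward each gene's spread overlapped that of the next.

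Genes of the same pathways or families were counted with the members, since each list includes its own. For these lists and those of the next paragraph, the shares of all genes called in either direction were as follows. They were 13% in Day 2 PCBP1 knockdown, 4.67% in Day 2 PCBP2 knockdown, 12.3% between the knockdowns and 0.0229% in Day 0 PCBP2 knockdown. In Day 2 PCBP1 knockdown, of 9 tested E proteins, ID proteins and partners 4 fell (background 7.51%), namely Lyl1, a TAL1-like factor (-1.06), the adaptor Lmo2 (-0.47), Id1, an inhibitor of E proteins (-1.07, with overlapping groups), and Tcf3 itself, and 1 rose (Tcf12, another E protein, 0.48), and the median was -0.29 against 0.02 for all genes. In Day 2 PCBP2 knockdown Tcf3 was the 1 called gene of that list. Between the knockdowns Id1 was higher (1.20), Lyl1 was higher (0.61) and Tcf12 lower (-0.37) in the PCBP2 knockdown. Of 12 pseudouridine synthases, Pus1 rose (0.45, with overlapping groups) and Pus7 fell (-0.70) in Day 2 PCBP1 knockdown. Of 7 calcium pumps and regulators tested, Atp2a2 was the 1 called in that comparison, and Atp2b1, a plasma membrane pump, was also higher in PCBP2 than in PCBP1 knockdown (0.43).

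Of 13 genes of treacle and RNA polymerase I, 1 rose in Day 2 PCBP1 knockdown (Rrn3, an initiation factor, 0.38), and 1 rose (Taf1d, 0.41) and 1 fell (Tcof1) in Day 2 PCBP2 knockdown. Of 8 genes of the class III PI3-kinase complex, Becn1, which encodes Beclin, fell in Day 2 PCBP1 knockdown (-0.42). Of 7 genes in the list of Luzp1 and its partners, Dapk3, a kinase of the actin cytoskeleton, fell in both knockdowns at Day 2 (-0.50 for PCBP1 and -0.53 for PCBP2). Of 3 genes of tubulin acetylation, the deacetylase Sirt2 fell in Day 2 PCBP2 knockdown (-0.48). In PCBP2 against PCBP1 knockdown, Pus7 (0.80), Trub2 (0.52), Taf1d (0.56) and Polr1c (0.54) were higher, and Pus1 (-0.42), Sirt2 (-0.38) and Pik3c3 (-0.39) were lower. The TFII-I family had no called gene in any knockdown comparison, at 0 of 3. No gene of these lists was called in Day 0 PCBP2 knockdown.

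Between Day 2 and Day 0 controls, 42.4% of all genes were called lower and 40.4% higher, and nothing is read from lists near these shares. In that comparison 12 of 12 pseudouridine synthases fell (median log2 fold change -1.97, against -0.05 for all genes). The TFII-I genes fell in 3 of 3 cases (median -2.55). Of 13 genes of treacle and RNA polymerase I, 11 fell and 2 rose (median -2.15). The autophagy list was divided, with 5 of 8 lower, Nrbf2 among them, and 3 higher, led by Atg14 (4.59) and Becn1 (2.98). Of 9 tested E proteins, ID proteins and partners, 3 rose (Tal1 by 3.93, Lyl1 by 3.54 and Lmo2 by 2.22) and 3 fell, with Tcf12 at -3.08. Of 7 calcium pumps 3 rose and 3 fell (median -0.30), of 7 genes in the list of Luzp1 and its partners 1 rose and 6 fell, Luzp1 among them (median -0.58), and of 3 genes of tubulin acetylation 2 rose, Atat1 and the deacetylase Hdac6 (1.40).

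For each member the tested gene with the highest Pearson correlation of log2 CPM over the 18 libraries was found, as a description. Since the days form separate clusters, correlations are given within a day, over 9 libraries. Tcf3 was most like Armc5 (r = 0.960 at Day 2 and 0.981 at Day 0), and Tcof1 most like Nudc (0.979 and 0.769). Rpusd1 was most like Snrpa (0.890 and 0.827), Luzp1 most like Lig4 (0.667 and 0.810) and Nrbf2 most like Cnot1 (0.689 and 0.775). For Gtf2ird1 and Dhcr7 it was 0.875 at Day 2 and 0.364 at Day 0, for Atat1 and Zfp821 0.898 and 0.505, and for Atp2a2 and Zfp667 0.936 and 0.18. The 9 libraries of a day differ in hairpin and depth, whose part in these correlations was not tested.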

How the data were processed

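RNA-seq of 18 libraries was analysed from 2 kinds of deposited file. The first gives estimated counts, effective lengths and TPM per transcript, made by the authors with Salmon 0.11.3, per the submitters' processing notes, which also name FastQC 0.11.9, Trim Galore 1.46.0, STAR 2.5.3a and SAMtools 1.9. The second is 4 deposited tables of local splicing variations, whose values, per the file headers, are E(PSI), E(dPSI) and a probability for libraries pooled by group. The program behind them and the strandedness are not given in the sources used here.

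Of 111706 listed transcripts, 110403 matched GENCODE M21 (GRCm38), and the other 1303 held 0.275% to 0.579% of the reads. Estimated counts were rounded, summed per gene, filtered with filterByExpr (17500 genes and 38216 transcripts left), TMM-scaled and fitted over all 6 groups with edgeR 4.0.16 (R 4.3.3) by the robust quasi-likelihood test with Benjamini-Hochberg adjustment, and by diffSpliceDGE for transcript use. DESeq2 1.42.0, limma 3.58.1, other scalings and filters, and leaving out each library were alternatives. Both edgeR tests were tested on simulated data. Shares per length divide estimated counts by the effective lengths in the authors' files. At most 4.38% of counts were equal between libraries of a group.

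The 8 genes, the marker lists and the pathway lists were chosen with earlier results of these data known. The text names all 8 genes in every comparison, their largest junctions, Pcbp1 and Pcbp2, the 1 most alike gene of each, and called list genes, up to 4 per list by smallest p. Some sequence is not reported here. The labels do not say whether same-numbered libraries are pairs, so the main fits used no block. Same-numbered libraries correlated weakly, which cannot show that they are not paired. A replicate block was run as an alternative between the knockdowns at Day 2 and between days.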

Additional observations from a re-analysis of the deposited data

Results flagged for a closer look

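Atp2a2 differed between the knockdowns at Day 2, by 0.505 on the log2 scale in PCBP2 against PCBP1 knockdown (edgeR adjusted p = 0.00143), with all 3 PCBP2 libraries above all 3 PCBP1 libraries. Tcof1 differed in the other direction, by -0.76 (adjusted p = 0.0174), with all 3 PCBP2 libraries below all 3 PCBP1 libraries. Both stand here because the effects of the 2 knockdowns under the same contrast were themselves tested against each other.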

How the results depend on the processing

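Of 488 values recomputed, 432 kept direction and side of the threshold, 28 lost a call, 3 gained one, 23 moved and 2 reversed. With library totals the Day 2 against Day 0 values of Tcf3 (-1.40) and Atat1 (-1.17) reversed. That scaling shifted the median by -1.63 there, by 0.231 for PCBP1 and 0.197 for PCBP2 at Day 2, and by -0.0338 between knockdowns. It gave 3459 higher and 628 lower genes against 953 and 1315 for PCBP1 at Day 2, 974 and 219 against 167 and 651 for PCBP2, and 3554 and 11346 against 7077 and 7413 between days. Under it Atp2a2 in Day 2 PCBP1 knockdown was -0.08 (adjusted p = 0.606). The cause of each move was not tested.

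Called genes numbered 4 for Day 0 PCBP2 knockdown (13 with DESeq2, 65 with no filter, 9 with Day 0 libraries only, 2 to 5 when 1 library was left out), 2268 for Day 2 PCBP1 (4087 with library totals, 932 with Day 2 libraries only, 1481 to 2660, with 1481 without LUC-1 and 1489 without PCBP1 SH1), 818 for Day 2 PCBP2 (1558 with DESeq2, 482 with the GC trend removed, 66 with Day 2 libraries only, 448 to 981, with 448 without PCBP2 SH4), 2158 for PCBP2 against PCBP1 (519 with Day 2 libraries only, 1052 to 3068, with 1052 without PCBP1 SH1 and 1093 without PCBP2 SH4) and 14490 between days (14282 to 14403). Called transcripts numbered 411 for Day 2 PCBP1 (809 with limma, 194 with Day 2 libraries only, 340 to 540), 88 for Day 0 PCBP2 (298 with limma, 84 to 107), 379 for Day 2 PCBP2 (626 with limma, 152 with Day 2 libraries only, 313 to 516), 284 between knockdowns (488 with limma, 90 with Day 2 libraries only, 236 to 324) and 4984 between days (11027 with limma, 3460 to 4520). Junctions at 0.95 numbered 102 and 250 for PCBP1 at Day 0 and Day 2 (469 and 1040 at 0.50, 415 and 931 by an absolute E(dPSI) of 0.20) and 21 and 77 for PCBP2 (223 and 601, 182 and 522).

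No paired analysis was possible because the labels of knockdown (SH1, SH3, SH4) and control libraries (SCR-1, SCR-2, LUC-1) share fewer than 2 numbers. Elsewhere same-numbered libraries correlated at -0.0451 to 0.0458 (PCBP2 against PCBP1, where SH1 and SH4 but not SH3 correlated best with their own number) and -0.0035 to 0.0207 (between days, SCR-2 only). The replicate block gave 918 genes and 80 transcripts between knockdowns and 3221 transcripts between days, Tcof1 between knockdowns at an adjusted p of 0.0515 and Atp2a2 between days at 0.0856.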
